A study of Mus musculus with 20 samples.

Results

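The transcripts described here were those of 55 genes for non-collagen parts of the extracellular matrix: 15 for fibronectin and matricellular glycoproteins, 4 for latent TGF-beta binding proteins, 13 for elastic fibre and microfibril proteins, 12 for enzymes and cofactors that crosslink or modify collagen, and 11 for proteoglycans. They were taken by name from the 25308 genes of the count table, which held every one of them, and all 55 passed the filter on low counts that left 14477 genes for testing. RNA was sequenced from the heart apex of 9 AL, 4 LS and 7 Ctrl mice, each library from a separate animal. All 20 mice carried the DH-LMP2A background (DH), in which B cells and plasma cells form without immunoglobulin heavy chains, so that plasma cells secrete free light chains. Ctrl mice were DH mice, age-matched, with mouse light chains only. LS mice were λS-DH mice, which also carry a human λ light chain gene (λS) from a patient with light chain (AL) amyloidosis, inserted at the mouse Ig kappa locus, and they were not induced and had no amyloid. AL mice were λS-DH mice with amyloid in the heart after a single intravenous injection of the recombinant variable domain of the λS light chain (rλS-VL). It was given as sonicated fibrils (seeds) or in soluble form, and the labels do not say which mouse received which. The mice were adults of both sexes, and neither the age nor the sex of each animal entered the comparisons. As a model, the groups have limits: AL mice differ from LS mice by the injection as well as by amyloid, all LS mice were sequenced in 1 run, and the light chain is made by plasma cells and not by the heart.

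The cardiac matrix is laid down mainly by fibroblasts. Fibronectin and fibrillin microfibrils form early scaffolds, LTBPs (latent TGF-beta binding proteins) store TGF-beta on them, fibulins and lysyl oxidases assemble and crosslink elastin, and small leucine-rich proteoglycans such as decorin and biglycan bind collagen fibrils and regulate their spacing. Matricellular proteins such as tenascin C, periostin and thrombospondins are typically low in healthy adult heart muscle and are known for their expression during injury and repair. In a bulk sample, a change in the number of cells of a type and a change in RNA per cell cannot be told apart.

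Comp, Fbln1, Efemp2, Bgn and Podn were the members higher in AL than in both Ctrl and LS mice, and the 250 bases before the start of those with an entry in the RefSeq promoter table (build GRCm38.p6) are shown so that their promoters can be compared. Capitals mark any match, on either strand, to 4 motifs. The TATA-binding protein element was searched as TATAAA. The element bound by Sp1 and its relatives, the GC box, was searched as GGGCGG. The element of AP-1 factors such as Fos and Jun was searched as TGANTCA, and the element of TEAD factors, which act with Yap, as GGAATG.
Fbln1 (chr15:85205699-85205948, plus strand): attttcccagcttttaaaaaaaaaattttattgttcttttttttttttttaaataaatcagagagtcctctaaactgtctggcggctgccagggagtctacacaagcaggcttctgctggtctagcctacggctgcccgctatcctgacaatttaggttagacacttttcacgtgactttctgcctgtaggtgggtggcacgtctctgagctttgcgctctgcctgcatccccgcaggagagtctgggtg
Efemp2 (chr19:5473696-5473945, plus strand): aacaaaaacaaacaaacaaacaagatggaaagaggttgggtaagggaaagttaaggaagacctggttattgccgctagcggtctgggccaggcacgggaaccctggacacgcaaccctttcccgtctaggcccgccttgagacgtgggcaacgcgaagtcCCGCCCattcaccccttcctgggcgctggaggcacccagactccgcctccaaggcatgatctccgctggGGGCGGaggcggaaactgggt
Bgn (chrX:73483351-73483600, plus strand): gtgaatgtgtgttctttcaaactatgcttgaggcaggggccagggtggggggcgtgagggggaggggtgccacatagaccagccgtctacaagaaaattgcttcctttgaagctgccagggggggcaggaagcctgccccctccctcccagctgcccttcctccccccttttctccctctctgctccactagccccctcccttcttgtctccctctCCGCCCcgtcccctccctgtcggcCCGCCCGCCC
Podn (chr4:108031955-108032204, minus strand): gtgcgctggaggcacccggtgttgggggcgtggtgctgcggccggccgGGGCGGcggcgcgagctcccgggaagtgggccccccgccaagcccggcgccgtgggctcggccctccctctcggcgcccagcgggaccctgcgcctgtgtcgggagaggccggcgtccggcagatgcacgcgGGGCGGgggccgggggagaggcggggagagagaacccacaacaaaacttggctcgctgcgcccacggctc
Matches were present in 3 of these 4 promoters, all to the GC box, with 2 in Efemp2, 3 in Bgn (the last pair overlapping) and 2 in Podn, and Fbln1 held no match in this window. Among all 32851 promoters of the table, 32.7% held a GC box, 12.4% a TATA box, 6.75% the AP-1 motif and 12.6% the TEAD motif in these 250 bases. The table held 37 of the 55 members, of which 20 had a GC box, 6 a TATA box, 2 the AP-1 motif and 3 the TEAD motif. A match is only a match of letters. In the GENCODE M21 annotation (GRCm38), Comp lies on chromosome 8 (70373558 to 70382066), Fbln1 on chromosome 15 (85205949 to 85286535), Efemp2 on chromosome 19 (5473954 to 5482517), Bgn on chromosome X (73483602 to 73495933) and Podn on chromosome 4 (108014791 to 108096445), and the RefSeq start of Podn shown here lies 64491 bases inside that gene model.

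Values are CPM, the counts scaled to library size by TMM, and total counts per mouse lay between 7867642 and 62668146. The labels give 2 sequencing batches: AL8, AL9, Ctrl5, Ctrl6 and Ctrl7 formed the second run, with totals of at most 11794615, and the other 15 mice, with all LS mice, the first. A count of 3 corresponds to 0.0479 to 0.381 CPM. The tissue label fitted the ventricular cardiomyocyte markers, which summed to 55900 to 83200 CPM in every mouse, while the atrial markers summed to 0.736 to 4.73 CPM. AL8 and AL9 stood apart for the matrix genes. The 55 members together made up 5920 CPM in AL9 and 1966 CPM in AL8, against 2330 to 5158 CPM in the other 18 mice. AL9 had the highest value of all 20 mice for 30 of 55 members (19.9% of all tested genes), whereas AL8 had the lowest for 27 (9.84% of all tested genes). Against the 3 Ctrl mice of their own run, AL9 was above all of them for 40 members (33.9% of tested genes) and AL8 below all of them for 34 (30.9%). The share of mitochondrial counts was 18.3% in AL9 and 23.9% to 37.1% in the other mice, and the TMM factor was 1.30 in AL9 and 0.863 to 1.10 in the others, and the part of these in the results was not tested. The main results are therefore also given without AL9 or in the first run alone.

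**Figure D1:**
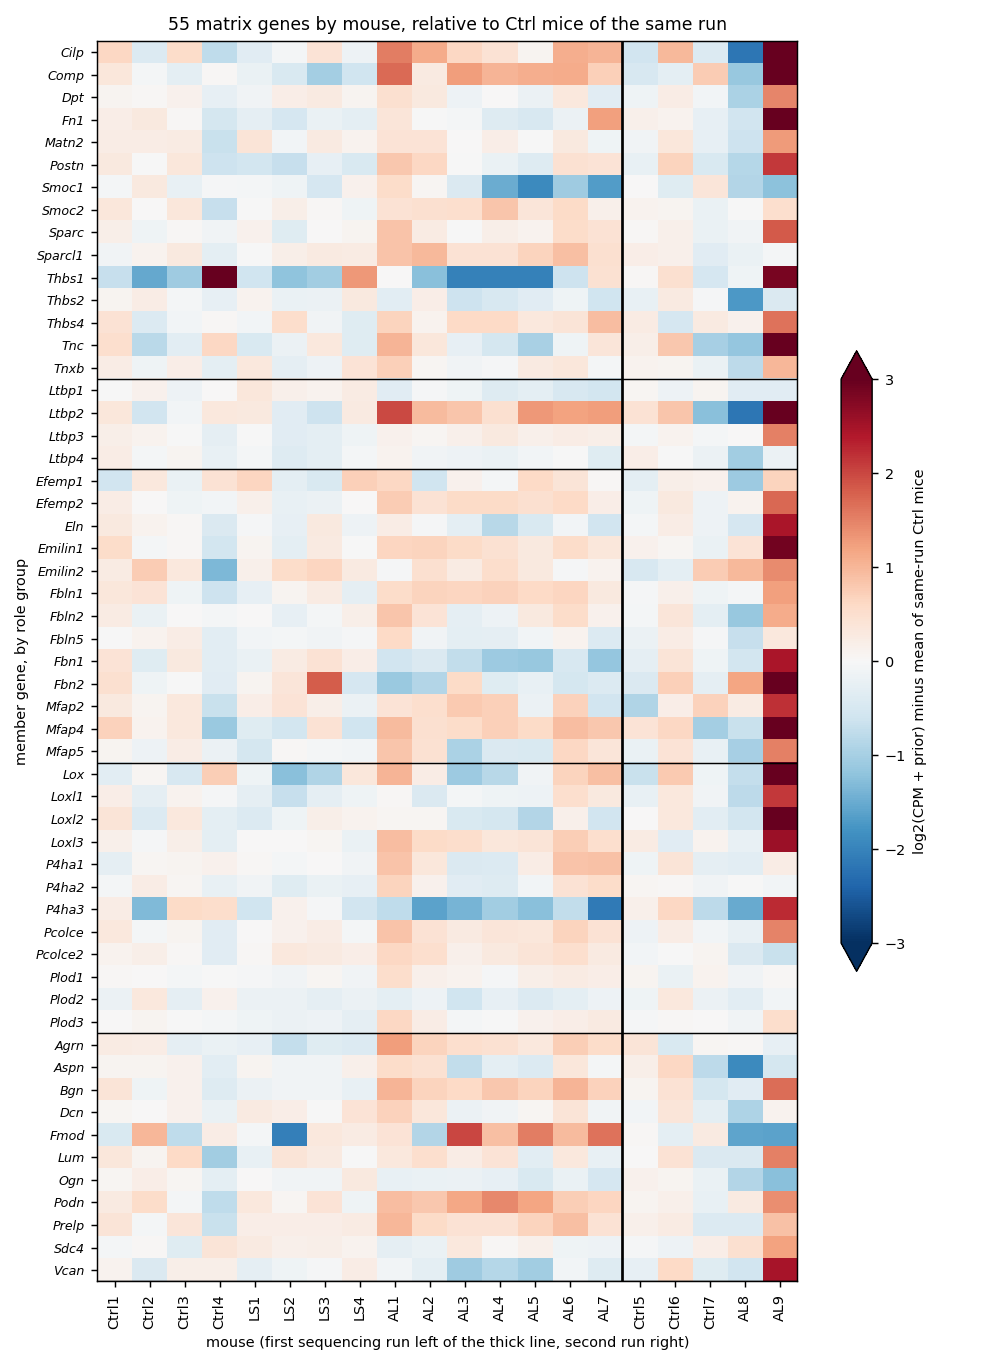
Level of the 55 members in each mouse as log2 CPM minus the mean of the Ctrl mice of the same sequencing run (colour, limited to 3 either side of 0), in rows by role group and columns by mouse. AL9 is the reddest column, with 43 of 55 members above its run's Ctrl mean, and AL8 has 10.

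AL mice were compared with Ctrl mice to ask which matrix genes differed in hearts with amyloid. A gene was called at an FDR (Benjamini-Hochberg adjusted p of edgeR's quasi-likelihood test over all tested genes, with sequencing run in the model) under 0.05 with an absolute log2 fold change (log2FC) of at least 0.58. Of the 55 members, 12 were called, all higher in AL mice, where 7.81% of all tested genes were called in either direction, 4.1% as higher and 3.71% as lower. They were Comp, Cilp, Thbs4, Sparc, Ltbp2, Fbln1, Efemp2, Emilin1, Loxl3, Pcolce, Bgn and Podn. The log2FC was above 0 for 44 members, with a median of 0.34 (0.01 over all tested genes). Without AL9, 3 members were called (Podn higher, Fbn1 and P4ha3 lower), only Podn being shared with the 12, and the median log2FC was 0.07 (0.02 over all tested genes). In the first run alone, 8 were called, of which 4 (Comp, Ltbp2, Bgn and Podn) belonged to the 12. Of the 12, Fbln1, Efemp2, Emilin1, Loxl3 and Bgn still passed the FDR without AL9 but fell under the fold threshold. Without AL8, 14 members were called, with all of the 12 among them, and the median log2FC was 0.45 (0.01 over all tested genes). How many of all tested genes were called without AL9 or without AL8 is not given. A change particular to the members therefore cannot be told from a general one. By the FDR alone, at any fold, 15 members were higher and 4 lower in AL than in Ctrl mice, where 26.2% of all tested genes passed (10.7% higher and 15.4% lower). No member had all AL mice above or below all Ctrl mice, as 0.484% and 1.51% of tested genes did.

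**Figure D2:**
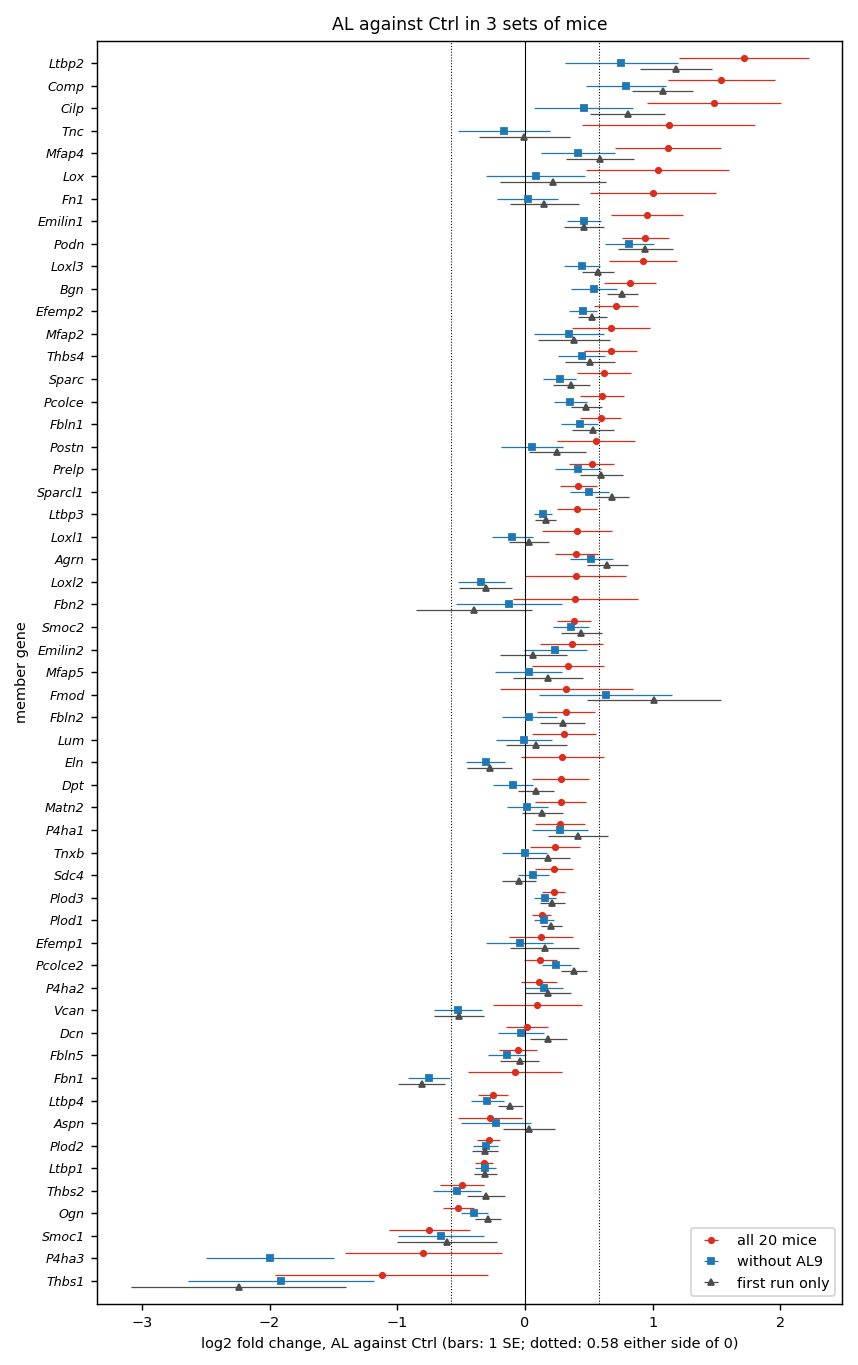
Log2FC of AL against Ctrl for each member (points) with 1 SE (bars), fitted on all 20 mice, without AL9 and on the first run alone; dotted lines mark 0.58 either side of 0. With all mice the values run from Ltbp2 (1.71) to Thbs1 (-1.12), the points of Tnc, Fn1 and Lox move to near 0 without AL9, and P4ha3 was not tested in the first run.

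Among fibronectin and matricellular glycoproteins, 4 of 15 rose. Comp encodes cartilage oligomeric matrix protein, which binds collagens. Its lowest, median and highest levels were 0.474 (AL8), 3.45 and 14.9 CPM (AL9) in AL mice and 0.787, 1.54 and 2.03 CPM in Ctrl mice, and LS1 to LS4 had 1.39, 1.16, 0.774 and 1.04 CPM. AL8 lay below the Ctrl range, AL2 (1.95 CPM) within it and the other 7 AL mice above it. The log2FC was 1.54 (SE 0.42, FDR = 0.0121 by edgeR's quasi-likelihood test), 0.79 (SE 0.31, FDR = 0.072) without AL9 and 1.08 (SE 0.24, FDR = 0.00609) in the first run. Cilp encodes cartilage intermediate layer protein, known from cardiac fibroblasts. It had 1.07, 14.3 and 95.9 CPM as lowest, median and highest level in AL mice and 3.35, 5.29 and 10.8 CPM in Ctrl mice, with 5.5, 6.69, 9.33 and 6.26 CPM in LS mice. AL4 and AL5 lay within the Ctrl range and AL8 below it, and the log2FC of 1.48 (SE 0.53, FDR = 0.0448, edgeR) was 0.46 (FDR = 0.417) without AL9. Thbs4, a thrombospondin, had 3.91, 5.49 and 11.2 CPM in AL and 2.49, 3.72 and 4.92 CPM in Ctrl mice, with 3.43, 5.26, 3.34 and 2.81 CPM in LS mice. In 4 AL mice (AL2, AL5, AL6 and AL8) the level was within the Ctrl range. The change was 0.67 (SE 0.21, FDR = 0.024, edgeR) and 0.44 (FDR = 0.0864) without AL9. Sparc, a collagen-binding glycoprotein, had 186, 344 and 714 CPM in AL and 175, 266 and 326 CPM in Ctrl mice, with 314, 222, 289 and 305 CPM in LS mice. AL3, AL4, AL5 and AL8 lay within the Ctrl range. Its change of 0.62 (SE 0.21, FDR = 0.0348, edgeR) became 0.27 (FDR = 0.137) without AL9.

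Fn1, the fibronectin gene, was far higher in AL9 than in any other mouse. Its level was 29.9 (AL8), 53.1 and 665 CPM (AL9) as lowest, median and highest of the AL mice, 37.1, 48.8 and 67.5 CPM in Ctrl mice and 45.3, 39, 47.9 and 44.9 CPM in LS mice. AL7 (129 CPM) and AL1 (70.3 CPM) also lay above the Ctrl range, AL8 lay below it, and the other 5 AL mice (39.7 to 54.4 CPM) lay within it. The log2FC of Fn1 was 1.00 (SE 0.49, FDR = 0.139, edgeR) with and 0.02 (FDR = 0.958) without AL9. Tnc, the tenascin C gene, was also highest in AL9, with 0.474, 1.67 and 42.8 CPM in AL, 0.538, 1.45 and 2.83 CPM in Ctrl and 1.32, 1.6, 2.28 and 1.41 CPM in LS mice. The second highest AL mouse had 3.78 CPM, and the log2FC of 1.12 (SE 0.68, FDR = 0.231, edgeR) was -0.17 without AL9. Postn, the periostin gene, gave 0.56 (SE 0.31, FDR = 0.192) and 0.05 without AL9. Thbs1 was at 348 CPM in Ctrl4 and at 6.76 to 22 CPM in the other Ctrl mice, and its log2FC of -1.12 (SE 0.83) did not pass the test (FDR = 0.338, edgeR). Sparcl1, a relative of Sparc, differed less in fold but more evenly. The 7 AL mice of the first run had 443 to 649 CPM and the 8 LS and Ctrl mice of that run 268 to 402 CPM without overlap, while AL8 (299 CPM) and AL9 (330 CPM) lay within the range of the second-run Ctrl mice (273 to 394 CPM). Its log2FC was 0.42 (SE 0.14, FDR = 0.0394, edgeR) in all mice and 0.68 (SE 0.13, FDR = 0.00345) in the first run. Sparcl1, and the other members outside the 12 whose values are given below, were picked out after their values were seen, except Fn1, Tnc, P4ha3 and Agrn. Thbs2 was lower in AL mice by the FDR (log2FC -0.49, SE 0.17, FDR = 0.0397, edgeR) but under the fold threshold, and Smoc2 was higher (0.39, SE 0.13, FDR = 0.0381). Without AL9 these were -0.53 (FDR = 0.0441) and 0.36 (FDR = 0.0741).

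Of the 4 LTBP genes, Ltbp2 rose and Ltbp1 was lower by the FDR. Ltbp2, whose protein binds microfibrils, had 0.593 (AL8), 4.52 and 48.5 CPM (AL9) as lowest, median and highest in AL, 1.15, 2.42 and 5.08 CPM in Ctrl and 2.39, 1.51, 1.24 and 2.33 CPM in LS mice. In the first run, the AL mice (2.72 to 7.76 CPM) did not overlap with the Ctrl mice (1.29 to 2.47 CPM) or the LS mice. The log2FC was 1.71 (SE 0.51, FDR = 0.019, edgeR) in all mice, 0.75 (FDR = 0.227) without AL9 and 1.18 (SE 0.28, FDR = 0.00853) in the first run. Ltbp1, a main carrier of latent TGF-beta, varied little between mice, and its level was 38.2, 45.3 and 54.3 CPM in AL, 50.6, 56.3 and 61.5 CPM in Ctrl and 70.5, 61.9, 59.7 and 66.6 CPM in LS mice. AL2 and AL3 reached the Ctrl range, and no AL mouse reached an LS mouse. The log2FC of Ltbp1 was -0.32 (SE 0.07, FDR = 0.0036, edgeR) and was -0.31 without AL9 and in the first run. Ltbp3 had 25.8 to 33.7 CPM in 8 AL mice and 95 CPM in AL9, against 20.4 to 36.1 CPM in Ctrl mice (log2FC 0.41, SE 0.16, FDR = 0.0645, edgeR, and 0.14 without AL9). Ltbp4 gave -0.25 (SE 0.12, FDR = 0.12).

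Of the 13 elastic fibre and microfibril genes, 3 rose. Efemp2, which encodes fibulin-4, a protein needed for elastic fibre assembly, had 6.15, 7.89 and 19.5 CPM (AL9) in AL mice, 4.84, 5.32 and 7.17 CPM in Ctrl mice and 5.91, 4.54, 4.69 and 5.39 CPM in LS mice. Every AL mouse lay above every LS mouse, and AL7 and AL8 lay below the highest Ctrl mouse. The log2FC was 0.71 (SE 0.17, FDR = 0.00592, edgeR), and 0.45 (FDR = 0.00816) without AL9, under the fold threshold. Fbln1, the fibulin-1 gene, had 40.5 (AL8), 87.6 and 98.4 CPM in AL, 36.2, 46.5 and 74.4 CPM in Ctrl and 47.1, 59.1, 66.6 and 46.6 CPM in LS mice. Of the AL mice, 7 lay between 82.7 and 98.4 CPM and above every Ctrl mouse (log2FC 0.59, SE 0.16, FDR = 0.0124, edgeR, and 0.43, FDR = 0.0426, without AL9). Emilin1, which encodes an elastic fibre glycoprotein, had 14.9, 24.3 and 83.6 CPM in AL, 9.76, 12.4 and 24.1 CPM in Ctrl and 17.5, 13.5, 19.9 and 16.2 CPM in LS mice. AL4, AL5, AL7 and AL8 lay within the Ctrl range. The change of 0.96 (SE 0.29, FDR = 0.0195, edgeR) was 0.46 (FDR = 0.017) without AL9. Mfap4, a microfibril-associated gene, had 2.37, 15.6 and 44.7 CPM in AL and 1.84, 5.88 and 15.5 CPM in Ctrl mice, and its log2FC of 1.12 (SE 0.42, FDR = 0.0535, edgeR) did not pass and was 0.41 (FDR = 0.312) without AL9.

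Fbn1, the main fibrillin gene, was lower in AL mice in the first run. There the AL mice had 35.5 to 58.2 CPM, below all Ctrl (61.4 to 105 CPM) and LS mice (68.6, 94.3, 107 and 90.8 CPM). In the second run, AL9 had 228 CPM and AL8 28.6 CPM, against 34.8 to 54.4 CPM in Ctrl mice, so the change over all mice was -0.08 (SE 0.37, FDR = 0.902, edgeR). It was -0.81 (SE 0.18, FDR = 0.007, edgeR) in the first run, and -0.75 (FDR = 0.00366) without AL9. Exons of an annotated gene on the opposite strand, Gm9913, cover 20.1% of the exon bases of Fbn1. Eln, the elastin gene, had 77.5 CPM in AL9 and 9.96 to 23 CPM in the other AL mice, and 12.6 to 24.3 CPM in Ctrl mice (log2FC 0.29, SE 0.32, FDR = 0.535, edgeR, and -0.31, FDR = 0.149, without AL9). Fbln5, Fbln2, Efemp1, Mfap2, Mfap5, Emilin2 and Fbn2 did not pass, with log2FC of -0.06 to 0.67.

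Of the 12 crosslinking and collagen-modifying genes, 2 rose. Loxl3, a lysyl oxidase-like enzyme, had 2.84 (AL8), 5.88 and 19.7 CPM (AL9) in AL, 2.59, 3.94 and 4.61 CPM in Ctrl and 4.09, 4.1, 4.28 and 3.54 CPM in LS mice. Apart from AL8, all AL mice (5.19 CPM and above) lay above all 11 controls. The log2FC was 0.93 (SE 0.27, FDR = 0.0156, edgeR) in all mice, 0.44 (FDR = 0.0284) without AL9 and 0.57 (SE 0.12, FDR = 0.00558) in the first run, just under the fold threshold. Pcolce, an enhancer of procollagen C-proteinase, had 26.3, 53 and 87.4 CPM in AL, 27.8, 36.2 and 49.5 CPM in Ctrl and 39.5, 43.1, 46.3 and 38.1 CPM in LS mice (log2FC 0.60, SE 0.17, FDR = 0.0164, edgeR, and 0.35, FDR = 0.0534, without AL9). Lox, the lysyl oxidase gene, had 29.9 CPM in AL9 and 0.948 to 7.81 CPM in the other AL mice, with 0.984 to 6.39 CPM in Ctrl mice, and did not pass (1.04, SE 0.56, FDR = 0.178, edgeR). Loxl2 had 97.6 CPM in AL9 and 8.06 to 36.8 CPM in the other AL mice, against 9.45 to 43.7 CPM in Ctrl mice.

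P4ha3, a collagen prolyl hydroxylase subunit, was near the floor of detection. It had 2.24 CPM in AL9, 0 to 0.119 CPM in the other AL mice, 0.038 to 0.697 CPM in Ctrl and 0.0945, 0.189, 0.163 and 0.0963 CPM in LS mice. Its log2FC was -0.80 (SE 0.62, FDR = 0.359, edgeR), and -2.00 (FDR = 0.00894) without AL9. The lysyl hydroxylase genes moved little: Plod2 was lower by the FDR (-0.28, SE 0.09, FDR = 0.0295, edgeR, and -0.31 without AL9), and Plod1 (0.13) and Plod3 (0.22) did not pass.

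Of the 11 proteoglycan genes, 2 rose, Bgn and Podn, both coding for small leucine-rich proteins. Podn had 11.9, 16.9 and 44.7 CPM (AL9) as lowest, median and highest in AL, 4.41, 11 and 18.7 CPM in Ctrl and 9.4, 7.91, 10 and 6.91 CPM in LS mice. The overlap with Ctrl mice came from the second run, where the Ctrl mice had 14.4 to 18.7 CPM and AL8 20.5 CPM, while in the first run the AL mice (11.9 to 20.6 CPM) lay above all Ctrl mice (4.41 to 11 CPM). The log2FC was 0.94 (SE 0.18, FDR = 0.0015, edgeR), and it was 0.82 (FDR = 0.00546) without AL9 and 0.94 (SE 0.21, FDR = 0.00703) in the first run. Bgn, the biglycan gene, had 175 (AL8), 368 and 708 CPM (AL9) in AL, 154, 235 and 300 CPM in Ctrl and 203, 213, 212 and 197 CPM in LS mice. With the exception of AL8, every AL mouse (349 CPM and above) was above every control. The log2FC was 0.82 (SE 0.20, FDR = 0.007, edgeR), 0.54 (FDR = 0.0339) without AL9 and 0.76 (SE 0.12, FDR = 0.00176) in the first run. Prelp, a related leucine-rich proteoglycan, had 62.8 to 94 CPM in the first-run AL mice, above the 29.3 to 60.7 CPM of the first-run Ctrl mice, and 27.3 CPM in AL8 (log2FC 0.52, SE 0.18, FDR = 0.0343, edgeR, and 0.41, FDR = 0.105, without AL9). Ogn (osteoglycin) was lower by the FDR, with 38.6 (AL9), 122 and 129 CPM in AL and 79.6, 118 and 166 CPM in Ctrl mice (-0.52, SE 0.12, FDR = 0.00452, edgeR, and -0.40, FDR = 0.0119, without AL9). Dcn, the decorin gene, gave 0.01 (SE 0.16, FDR = 0.96), and Lum, Fmod, Aspn, Vcan and Sdc4 did not pass either.

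**Figure D3:**
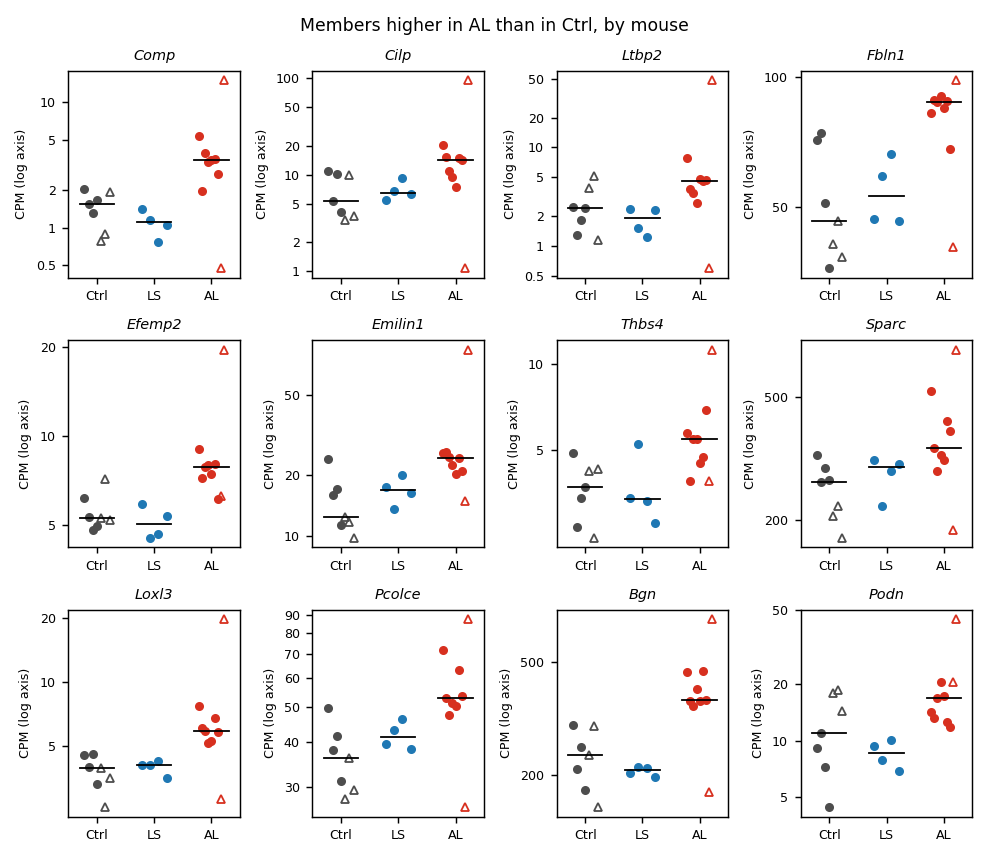
CPM (log axis) of the 12 members higher in AL than in Ctrl mice, 1 point a mouse, filled circles for the first and open triangles for the second sequencing run, lines at group medians. In all 12 panels the highest AL point is AL9, and in 10 the lowest is AL8, the others being Efemp2 and Podn.

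**Figure D4:**
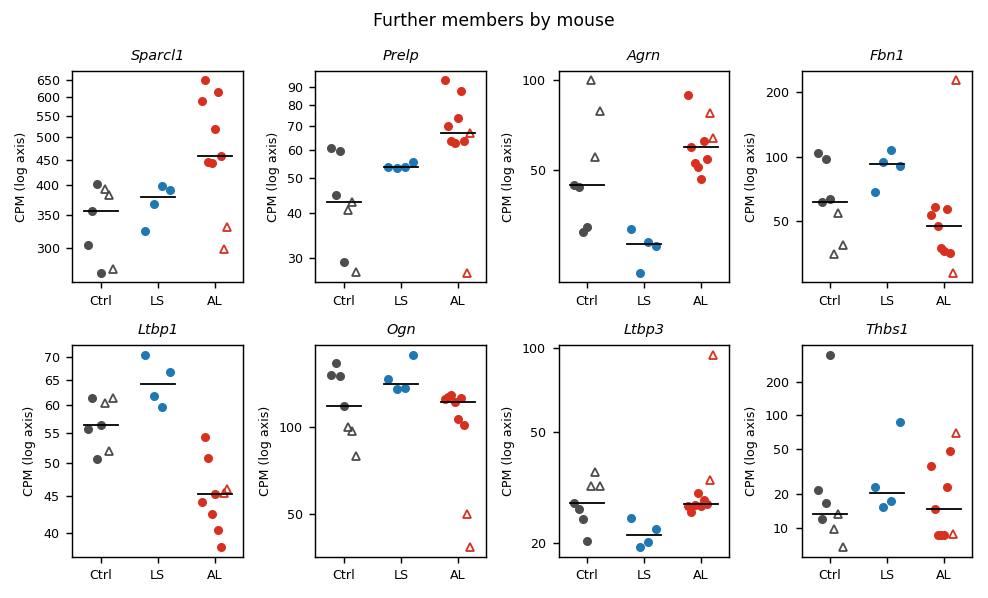
CPM (log axis) of 8 further members by mouse, with symbols for the runs and lines at medians as in the plot of the 12 members. First-run AL mice lie above all first-run controls for Sparcl1, Prelp and Agrn and below them for Fbn1, and Ctrl4 stands out for Thbs1 at 348 CPM.

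AL mice were also compared with LS mice, which carry the same light chain gene but had no amyloid. Here 6 of 55 members were called, all higher: Comp, Fbln1, Efemp2, Bgn, Podn and Agrn. Of all tested genes, 8.9% were called in either direction, 5.86% as higher and 3.03% as lower. The median log2FC of the members was 0.39 (0.01 over all genes). Agrn encodes agrin, a heparan sulfate proteoglycan of basement membranes. It had 46.5, 59.5 and 88.7 CPM in AL, 31.7, 22.7, 28.9 and 28 CPM in LS and 31, 44.7 and 99.6 CPM in Ctrl mice. All AL mice were above all LS mice, whereas the second-run Ctrl mice (55.3 to 99.6 CPM) reached above AL mice. The log2FC against LS was 1.01 (SE 0.20, FDR = 0.00194, edgeR) and against Ctrl 0.40 (SE 0.17, FDR = 0.0849). Against LS the log2FC of Comp was 1.83 (SE 0.53, FDR = 0.0191), of Bgn 0.96 (SE 0.25, FDR = 0.0103), of Podn 0.83 (SE 0.22, FDR = 0.0115), of Efemp2 0.65 (SE 0.21, FDR = 0.0308) and of Fbln1 0.64 (SE 0.20, FDR = 0.0241), all by edgeR. Without AL9 these were 1.57 for Comp, 0.87 for Bgn, 0.80 for Podn, 0.57 for Efemp2 and 0.59 for Fbln1, and 1.06 for Agrn, with FDR of 0.000985 to 0.0124. The 9 AL and 4 LS mice did not overlap for Efemp2, Ltbp3, Podn and Agrn (AL higher, as for 5.24% of tested genes) or for Ltbp1 and Ogn (AL lower, as for 8.25%).

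All LS mice were in the first run, and within it 12 members were called between AL and LS, 11 of them higher, where 11.5% of tested genes were called. They held the 6 above, with Postn, Cilp, Ltbp2, Mfap4 and Loxl3 higher and Fbn1 lower (log2FC -0.95, FDR = 0.00211, edgeR). Without LS4, the count over all mice was 3 (Bgn, Podn and Agrn), and without AL9 it was 7 (without Efemp2, and with Mfap4 higher and Fbn1 lower). For the fits without LS4 and without AL9, the share of all tested genes called is not given, so these counts are not set against it. Against LS, Ltbp1 had a log2FC of -0.52 (SE 0.08, FDR = 0.000615, edgeR), Ogn of -0.39 (FDR = 0.0434) and Plod3, a lysyl hydroxylase gene, of 0.40 (FDR = 0.014), all under the fold threshold. By the FDR alone, 8 members were higher and 2 lower than in LS mice, where 23.4% of tested genes passed (9.78% higher and 13.6% lower).

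Between LS and Ctrl mice, which differ by the light chain gene in the absence of amyloid, 0 of 55 members were called by edgeR or by DESeq2, against 0.0207% of all tested genes by edgeR. The smallest FDR was 0.755. Without adjustment, 2 members (Ltbp1 and Agrn) had p under 0.05, beside 5.94% of all tested genes. The log2FC lay between -0.88 and 1.22, and 51 members were within 0.58 either side of 0. The median SE was 0.284, and for 17 members the interval of 1.96 SE lay inside that range, so for the other 38 a change of that size was not resolved. Plod3 was the only member whose LS mice (22.2 to 24.3 CPM) all lay below all Ctrl mice (25.4 to 28.2 CPM), as for 1.28% of tested genes.

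Against LS and Ctrl mice merged, with a log2FC of at least 1 required, 4 members were called, all higher: Comp, Cilp, Ltbp2 and Mfap4. Of all tested genes, 4.88% were called, 2.74% as higher and 2.15% as lower. At any fold, 20 members were higher and 3 lower by the FDR, where 36.2% of all genes passed (16.5% higher and 19.8% lower). Without AL9, 2 members were called (Comp higher and P4ha3 lower), so that Cilp, Ltbp2 and Mfap4 were no longer called, and in the first run 3 were (Comp, Ltbp2 and Fmod). The shares of all tested genes called in these fits are not given, so the counts are not set against them. This comparison shares its mice with the others, so its calls are not independent of them.

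Within the first run, 7 AL mice could be set against 8 controls of the same batch. For 7 members every AL mouse lay above every LS and Ctrl mouse: Loxl3, Ltbp2, Podn, Sparcl1, Bgn, Prelp and Agrn, as for 3.01% of all tested genes. For Fbn1 every AL mouse lay below them, as for 6.41%. Against the Ctrl mice alone the same 8 members did not overlap (5.68% of tested genes higher and 8.66% lower), and against the LS mice alone 15 were higher and 4 lower (8.94% and 11.6%). The first-run fit of AL against Ctrl called 7 members higher (Comp, Ltbp2, Sparcl1, Bgn, Prelp, Podn and Agrn) and 1 lower (Fbn1), where 7.82% of tested genes were called, and the median log2FC was 0.18 (0.01 over all genes). Prelp had a log2FC of 0.60 (SE 0.17, FDR = 0.0187) and Agrn of 0.65 (SE 0.16, FDR = 0.0114) there, by edgeR. In the second run, AL9 and AL8 were both above all 3 Ctrl mice for 5 members (Sdc4, Emilin2, Fbn2, Podn and Emilin1) and both below them for 6 (Ltbp1, Pcolce2, Smoc1, Ogn, Thbs2 and Fmod). Over all tested genes, AL9 taken by itself lay above these Ctrl mice for 33.9% and below for 37.2%, and AL8 for 28% and 30.9%. The share for both mice together was not computed, so the 5 and 6 are not read as particular to the members. For the 6 members with the largest ratios in AL9, AL8 lay below the Ctrl mean. AL9 had 33.7 times the mean level of the 3 Ctrl mice for Tnc, 17.2 times for Lox, 16.95 times for Cilp, 14.9 times for Fn1, 14.4 times for Ltbp2 and 12.4 times for Comp. In AL8 these ratios were 0.373 for Tnc, 0.544 for Lox, 0.189 for Cilp, 0.671 for Fn1, 0.176 for Ltbp2 and 0.395 for Comp. The lowest ratios in AL9 were those of Fmod (0.318), Smoc1 (0.406), Ogn (0.418) and Pcolce2 (0.633), and 8 further members were below 1.

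Markers of other cells were read beside these genes, and their lists did not all move the same way. Between AL and Ctrl mice, 0 of 6 endothelial markers were called, though Egfl7 passed by the FDR alone. Of 8 smooth muscle and pericyte markers only Abcc9 was called, as lower (log2FC -0.84, FDR = 0.000338, edgeR). The 6 mesothelial markers, of the cell layer that covers the heart, summed to 17.4 to 262 CPM in AL mice (median 53.8, highest in AL9, and at most 78.2 without it), 7.49 to 25.8 CPM in LS mice and 14.3 to 36.9 CPM in Ctrl mice. Of them, 5 (Msln, Upk3b, Upk1b, Krt19 and Lrrn4) were higher in AL than in Ctrl mice by the FDR, Wt1 was not (FDR = 0.0719, edgeR), and none was at 0 in any mouse. With the mean log2 CPM of this list as a covariate, 1 member was called against Ctrl (Sparcl1, log2FC 0.59, FDR = 0.0474, edgeR) and 1 against LS (Agrn, 1.11, FDR = 0.0191), and the log2FC of Podn against Ctrl was 0.61 (FDR = 0.0801). Over all tested genes the calls fell too, to 2.84% against Ctrl and 3.35% against LS. Since the list itself differs with the group, its part in the results was not tested beyond this fit. In AL1 and AL2 the mesothelial sum was 35.9 and 17.4 CPM, inside the Ctrl range. The 12 fibroblast markers summed to 594 (AL8) to 4820 CPM (AL9) in AL mice, and to 1710 to 2500 CPM in those of the first run, 1660 to 1790 CPM in LS and 1090 to 2020 CPM in Ctrl mice. Of these markers only Htra3 was called between AL and Ctrl, and none was at 0. With the fibroblast list as a covariate, 7 members were called against Ctrl, 4 of them among the 12 (6.92% of all tested genes). The macrophage markers summed to 181 to 709 CPM in AL, 321 to 376 CPM in LS and 217 to 436 CPM in Ctrl mice, and 2 of 8 (Lyz2 and C1qb) passed the FDR. The 6 cartilage and tendon markers, relevant to Comp and Cilp, summed to at most 6.86 CPM in any mouse (Ctrl4) and to 6.54 CPM in AL9. Sox9 and Scx were above 0 in every mouse and did not pass against Ctrl (FDR = 0.99 and 0.126, edgeR), and Scx was highest in AL9 (4.39 CPM). Acan, Col2a1, Chad and Tnmd were at 0 in 7, 9, 13 and 19 of 20 mice and were not tested. Ventricular cardiomyocyte markers were at 55900 to 66300 CPM in first-run AL mice, 69100 to 77200 CPM in LS mice and 65500 to 72800 CPM in first-run Ctrl mice, and 2 of 8 (Myh6 and Pln) were lower in AL than in Ctrl mice by the FDR. The 12 liver markers summed to 1.84 to 40.5 CPM in AL, 8.48 to 198 CPM in LS and 1.97 to 331 CPM in Ctrl mice. In the second run the sum was 1.97 to 5.68 CPM in Ctrl mice, 3.56 CPM in AL8 and 5.94 CPM in AL9. All 12 liver markers were called lower in AL than in Ctrl mice (median log2FC -4.56), and 10 were called lower than in LS mice. With them as a covariate 15 members were called against Ctrl (7.17% of all tested genes), but this list too differs with the group. The atrial markers were low but higher in AL mice: Myl4 (log2FC 0.98, FDR = 0.0165) and Myl7 (1.97, FDR = 0.00961) passed by edgeR, and Sln was at 0 in 13 mice. The summed atrial level was 3.15 to 4.66 CPM in first-run AL mice, 4.73 CPM in AL9 and 2.02 CPM in AL8. It was at most 2.77 CPM in any LS or Ctrl mouse, so AL8 lay within their range. Of 7 activated fibroblast markers, Acta2 was called (0.88, FDR = 0.0236, edgeR), Cthrc1 was at 0 in 8 mice, and the sums were 141 to 364 CPM in AL, 214 to 320 CPM in LS and 103 to 271 CPM in Ctrl mice. The part of the fibroblast and liver RNA in the results was not tested beyond these fits. That of the macrophage, cardiomyocyte, atrial, activated fibroblast, endothelial and smooth muscle RNA was not tested.

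**Figure D5:**
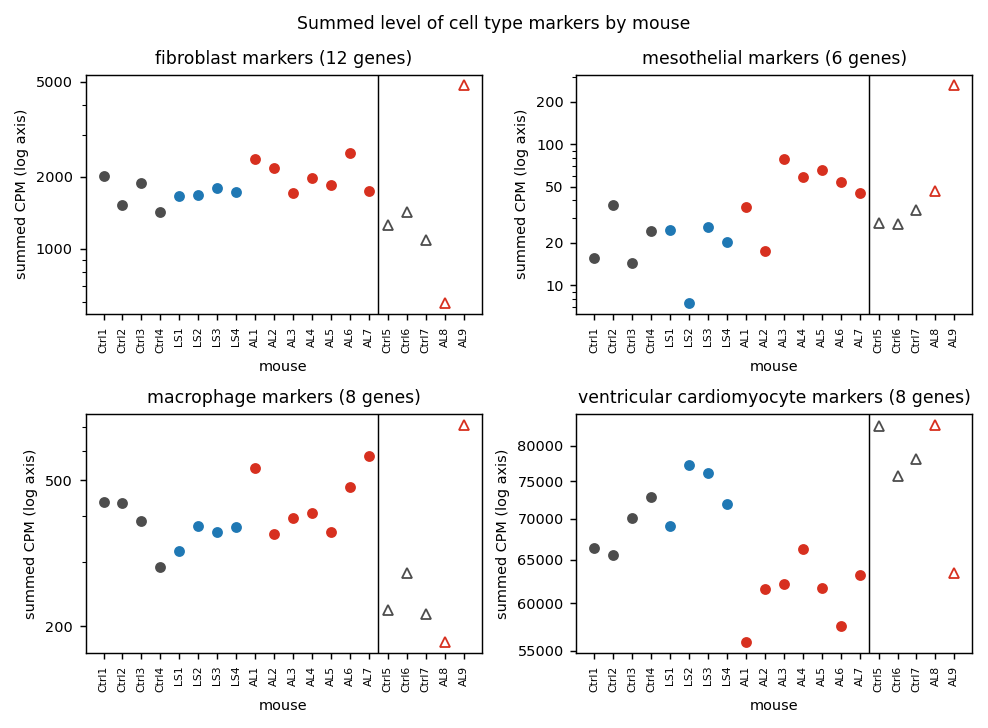
Summed CPM (log axis) of the fibroblast, mesothelial, macrophage and ventricular cardiomyocyte marker lists in each mouse, grey for Ctrl, blue for LS and red for AL, filled circles for the first and open triangles for the second run. AL9 has the highest fibroblast (4820 CPM), mesothelial (262 CPM) and macrophage (709 CPM) sums, and AL8 the lowest fibroblast sum (594 CPM).

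Whether the difference between AL and Ctrl mice itself differed between runs was tested as an interaction, with 2 AL and 3 Ctrl mice in the second run. It passed for 1 member, Pcolce2, with an interaction of -0.94 on the log2 scale (FDR = 0.0417, edgeR), where 0.684% of all tested genes passed (0.228% higher and 0.456% lower). Pcolce2, a relative of Pcolce, had 16.7 to 23.1 CPM in first-run AL and 11.9 to 17.2 CPM in first-run Ctrl mice, but 12.4 (AL8) and 10.7 CPM (AL9) against 15.9 to 17.8 CPM in the second run. Without Ctrl5, Ctrl6 or Ctrl7 no member passed. Without AL8 or AL9, 1 AL mouse is left in the second run and is assumed to vary like the others, so only effect sizes are given. For Pcolce2 the interaction was -1.05 without AL8 and -0.82 without AL9. Without AL8 it was 5.10 for Tnc, 3.22 for Fbn1 and -0.98 for Ogn. A value above 0 means a more positive difference in the second run, which need not be a larger one.

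Per kilobase of exon, Sparcl1 was the most abundant member in Ctrl mice, with 116 ± 19.6 CPM per kb (SD, n = 7), followed by Dcn (83.2 ± 19.6), Sparc (66.4 ± 14), Ogn (47.9 ± 12.8), Dpt (47.1 ± 23.4) and Bgn (38.0 ± 9.21). The spreads of neighbours in this order overlapped. At the other end were Tnc (0.215 ± 0.108), P4ha3 (0.1 ± 0.0685) and Fbn2 (0.0278 ± 0.0105), so that the 12 members higher in AL mice covered levels from 0.315 ± 0.174 (Ltbp2) to 66.4 CPM per kb. Of the summed CPM per kb of the 55 members, matricellular glycoproteins took 42.1% to 45.9% in AL, 39.4% to 42.2% in LS and 38.3% to 44.7% in Ctrl mice. Proteoglycans took 26.03% (AL9) to 36.1% in AL, 34.6% to 38.2% in LS and 30.9% to 37.2% in Ctrl mice, and elastic fibre genes 13.5% in AL9 and 7.51% to 9.83% in all other mice.

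A list of 75 further matrix genes, of which 63 were tested, was read beside the members. Against Ctrl, 5 were called higher in AL mice and 1 lower, with a median log2FC of 0.30 (0.01 over all genes), which is 9.52% of the list beside 7.81% of all tested genes. Mgp, which encodes matrix Gla protein, an inhibitor of calcification, had a log2FC of 0.89 (SE 0.13, FDR = 0.00025, edgeR), Igfbp7 0.70 (SE 0.15, FDR = 0.00259), Ecm1 0.90 (SE 0.24, FDR = 0.00944), Thbs3 0.81 (SE 0.23, FDR = 0.0151) and Fras1 0.96 (SE 0.31, FDR = 0.0298). The lower gene was Gpc6, a glypican, at -0.84 (SE 0.19, FDR = 0.00331). Without AL9, 3 of the 63 were called, and the share of all tested genes called in that fit is not given. Against LS, 4 were called higher (Prg4, Ecm1, Mgp and Igfbp7) and 2 lower (Hapln3 and Mfap1a), again 9.52% beside 8.9% of all tested genes. Mfap1a is counted here as listed, and these data do not show that it is a matrix gene.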

How the data were processed

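The authors made stranded libraries from polyadenylated RNA, aligned the reads to GRCm38 with STAR and quantified genes with Salmon, and deposited 1 table of estimated counts of 25308 genes for 20 mice, not normalized (14.2% of values are not whole). Group and sequencing run come from the sample labels. Estimated counts were rounded. With edgeR 4.0.16 in R 4.3.3, low genes were removed by filterByExpr (groups, minimum count 10), libraries scaled by TMM and genes tested by glmQLFit and glmQLFTest, with group and run in the model, 3 groups together (LS and Ctrl merged for the merged comparison), and Benjamini-Hochberg adjustment over 14477 genes. CPM are TMM-scaled, and log2 CPM use a prior count of 2. The SE of a log2FC was derived from the F statistic. The p-values are two-sided and measure the spread between mice. Floors of 3 counts cover counting error only. The fit was tested on simulated data.

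The members and gene lists were chosen with earlier results of these data known. Values by mouse were given for called members, for Fn1 and Ltbp2, for the 5 members in which the highest AL mouse most exceeded the second, for the largest change in a role group without a call, and for members said to be picked later. Other genes named are called matrix genes and cell markers. Alternatives used DESeq2 1.42.0 and ComBat-seq (sva 3.50.0). Exon lengths and positions come from GENCODE M21, promoters from RefSeq. Figures were drawn with matplotlib.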

Additional observations from a re-analysis of the deposited data

Results flagged for a closer look

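In 24 of the 165 combinations of member and group, 1 mouse lay farther from the rest on the log2 scale than Dixon's 95% limit allows, a limit that chance passes in about 1 in 20 groups. AL9 was the high mouse for Fn1 (665 CPM), Ltbp3 (95 CPM), Fbn1 (228 CPM), Fbn2 (2.84 CPM), Eln (77.5 CPM), Efemp2 (19.5 CPM), Emilin1 (83.6 CPM), Tnc (42.8 CPM), P4ha3 (2.24 CPM) and Podn (44.7 CPM). AL8 was the low mouse for Fbln1 (40.5 CPM), Mfap4 (2.37 CPM), Thbs2 (11.1 CPM), Bgn (175 CPM), Lum (28 CPM), Prelp (27.3 CPM), Matn2 (10.4 CPM) and Dpt (20.3 CPM). In Ctrl mice, Ctrl4 was high for Thbs1 (348 CPM) and low for Pcolce2 (11.9 CPM), and Ctrl6 was low for Plod1 (59.9 CPM). In LS mice, LS3 was low for Plod2 (34.1 CPM), LS2 low for Fmod (0.631 CPM) and LS4 high for Prelp (55.4 CPM).

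The difference between AL and Ctrl mice differed between the sequencing runs for Pcolce2, by -0.944 on the log2 scale.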

How the results depend on the processing

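Of 35 alternatives for each count of called members, 30 stayed within 1.5 times the reported 12 against Ctrl, 29 within 1.5 times the 6 against LS, 28 within 1.5 times the 4 against merged controls, and all 35 at 0 between LS and Ctrl. Most alternatives left out 1 mouse, and the number called does not say which genes were called. Against Ctrl, the first run alone gave 8 and the mice without AL8 and AL9 gave 9, each sharing only 4 with the 12. The counts below are given without the share of all tested genes called. The exceptions against Ctrl were ComBat-seq counts in place of the run term (4), the fibroblast covariate (7), the mesothelial covariate (1), no fold requirement (19) and single mice left out (3, without AL9, to 14). Against LS they were the first run alone (12), the mice without AL8 and AL9 (12), the mesothelial covariate (1), no fold requirement (10) and single mice left out (3, without LS4, to 9, without AL8). Against merged controls they were at least 10 counts in every mouse (1), the liver covariate (10), the mesothelial (0) and fibroblast (2) covariates, no fold requirement (23), a log2FC of 0.58 (12) and single mice left out (2 to 5). For the 63 other matrix genes, reported as 6 in each comparison, they were against Ctrl the liver covariate (12), the mesothelial covariate (1), no fold requirement (14) and single mice left out (3 to 12), and against LS DESeq2 (11), ComBat-seq (3), the first run (10), the mesothelial (1) and fibroblast (10) covariates, without AL8 and AL9 (11), no fold requirement (14) and single mice left out (4 to 11). The interaction with the run, reported for 1 member, gave 0 to 25 members with single mice left out. The covariate fits on mesothelial and fibroblast markers and the fits without AL8 and AL9 were chosen after seeing the data. No named member that was called changed its sign, and Fn1, Tnc and P4ha3, not called, changed sign against Ctrl (log2FC -0.03 to 1.86, -0.17 to 2.62 and -2.01 to 0.33). The causes were not tested.

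With the replicate number as a block, 12 members were called against Ctrl and 12 against LS, of which 8 and 6 were among those reported. The numbers do not pair the mice: of 15 pairs that share one, 3 had deviations correlated above 0.1 (range -0.154 to 0.231).

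The second run has 5 mice at lower depth, and a count of 3 there is worth at least 0.254 CPM, so P4ha3 and Fbn2 are near the limit. All LS mice were in the first run.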
